A study of Mus musculus with 162 samples.

Results

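Lrrtm1, Lrrtm2, Lrrtm3 and Lrrtm4 encode the leucine-rich repeat transmembrane neuronal proteins, a small family of postsynaptic ligands of the neurexins. They were chosen by name: all 4 family members were found among the 22870 genes of the count table. Their levels are described over 148 mouse neural cells that the submitters passed in quality control, of 162 sequenced, and over 14 that were failed. A patch-clamp pipette took up the cytosol of a single cell at E17.5 to E18.5 (days of embryonic life) and its total RNA was sequenced, so each sample is 1 cell. Cells came from mice of 3 driver lines, each named for the gene that drives Cre recombinase: 114 passed cells of the Htr3a Cre line (a serotonin receptor gene), 17 of the Lhx6 Cre line (an interneuron transcription factor gene) and 17 of the Nex Cre line (another name of Neurod6, which marks glutamatergic neurons). The labels give no reporter allele, treatment, sex, animal, litter or brain region, and no control genotype.

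The submitters labelled the passed cells as MGE-derived 1 (18 cells, 11 Htr3a and 7 Lhx6 line), MGE-derived 2 (24 cells, 17 Htr3a and 7 Lhx6 line), CGE-derived (11 cells, all Htr3a line) and GABAergic (4 cells, 3 Htr3a and 1 Lhx6 line). Other cells were labelled Glutamatergic 1 (33 cells, 23 Htr3a and 10 Nex line), Glutamatergic 2 (13 cells, 12 Htr3a and 1 Nex line), Cajal Retzius (12 cells, all Htr3a line), VZ-derived (11 cells, 8 Htr3a, 1 Lhx6 and 2 Nex line) and Undefined (22 cells, 17 Htr3a, 1 Lhx6 and 4 Nex line). MGE, CGE and VZ are not spelled out in the labels. They were taken here as the medial and caudal ganglionic eminences, which give rise to cortical interneurons, and the ventricular zone, which holds progenitors. Because no label ties a cell to an animal or culture, each group counted as 1 sample and group differences are given without a test. Driver line, animal and any batch cannot be told apart.

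LRRTM proteins sit in the postsynaptic membrane of excitatory synapses and bind neurexins across the cleft. LRRTM1 and LRRTM2 bind neurexins that lack the insert at splice site 4, and they help to hold AMPA-type glutamate receptors at the synapse. LRRTM3 and LRRTM4 also bind heparan sulfate chains, which are carried by neurexins and by glypicans, and LRRTM4 on dendrites binds glypican on axons, which acts with the receptor phosphatase PTPRS. Inserts at splice site 4 are skipped under the control of the RNA-binding proteins SAM68, SLM1 and SLM2, which are encoded by Khdrbs1, Khdrbs2 and Khdrbs3.

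Sequences just upstream of the RefSeq starts are shown because the 2 members with the largest differences between glutamatergic and GABAergic cells, Lrrtm1 and Lrrtm3, can be set beside Lrrtm4, which differed little. Capitals mark E-boxes, the letters CANNTG, which read the same on both strands and are the core site of basic helix-loop-helix factors such as NEUROD6. Sequences are RefSeq's, build GRCm38.p6, which held 3 of the 4 members in the table used, 5′ to 3′ on the gene's strand. They cover chr6:77242227-77242476 (plus strand), chr10:64090278-64090505 (minus strand) and chr6:80018627-80018876 (plus strand). The stretch for Lrrtm3 is 228 bases long, since the rest of the 250 bases lies in the annotated gene. Lrrtm4 had 2 RefSeq entries, and the stretch shown is that of the first.
Lrrtm1: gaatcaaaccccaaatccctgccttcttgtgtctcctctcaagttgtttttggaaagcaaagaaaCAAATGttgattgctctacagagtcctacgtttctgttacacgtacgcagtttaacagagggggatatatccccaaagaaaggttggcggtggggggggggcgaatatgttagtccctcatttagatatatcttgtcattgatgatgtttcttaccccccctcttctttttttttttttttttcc
Lrrtm3: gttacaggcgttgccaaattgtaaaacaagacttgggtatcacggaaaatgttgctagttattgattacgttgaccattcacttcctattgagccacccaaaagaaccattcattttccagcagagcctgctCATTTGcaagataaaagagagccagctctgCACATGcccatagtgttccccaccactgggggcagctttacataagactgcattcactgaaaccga
Lrrtm4: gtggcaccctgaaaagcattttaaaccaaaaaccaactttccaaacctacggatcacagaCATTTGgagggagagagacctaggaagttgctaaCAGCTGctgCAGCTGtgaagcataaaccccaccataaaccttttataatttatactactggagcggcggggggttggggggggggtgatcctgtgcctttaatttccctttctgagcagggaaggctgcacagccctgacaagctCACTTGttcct

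The stretch before Lrrtm1 held 1 E-box, that before Lrrtm3 held 2 and that before Lrrtm4 held 4, of which 2 had the same letters. None overlapped another. Of 32841 RefSeq promoter windows cut to 250 bases, 66.2% held at least 1 E-box and 3.84% held at least 4. Cut to 228 bases, 63.2% held at least 1 and 28.6% at least 2. The stretch before Lrrtm1 held 5 CG pairs and that before Lrrtm4 held 3, beside a median of 6 over all windows of that length. That before Lrrtm3 held 4, beside a median of 5. A match describes these letters only and was not tested for binding.

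In GENCODE M21 on build GRCm38, Lrrtm1 (ENSMUSG00000060780) spans chr6:77242689-77257791 on the plus strand, within the alpha-catenin gene Ctnna2 on the opposite strand. Lrrtm2 (ENSMUSG00000071862) spans chr18:35209003-35215024 on the minus strand, within Ctnna1 on the opposite strand. Lrrtm3 (ENSMUSG00000042846) spans chr10:63928472-64090277 on the minus strand, within Ctnna3 on the opposite strand. Lrrtm4 (ENSMUSG00000052581) spans chr6:80018877-80810143 on the plus strand, and its exons overlap those of the gene model Gm4409. Exons of Lrrtm1 and Lrrtm3 share 0 bases with exons of their host genes, and those of Lrrtm2 share 95 bases with Ctnna1. No source used here says that the counting used strand, so reads of an LRRTM gene and of unspliced RNA from the opposite strand cannot be told apart.

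The marker genes of each label were checked before the LRRTM genes were compared. With a count in 50% or more of the cells, both Glutamatergic groups held 7 or 8 of 10 glutamatergic markers and 0 of 7 GABAergic markers. The MGE-derived, CGE-derived and GABAergic cells held 5 to 7 of 7 GABAergic markers, and Cajal Retzius cells held 8 of 8 of theirs. VZ-derived cells held 0 of 9 progenitor markers (Sox2, Pax6 and others) at that share, as did MGE-derived 1, CGE-derived and Glutamatergic 1 cells. VZ-derived cells held all 8 pan-neuronal markers and 6 of 10 glutamatergic markers (Neurod2, Neurod6, Tbr1 and others). Their label names an origin, which these markers do not test, and it is used below as a name only. Passed cells held 1710224 to 24836041 counts in 2066 to 14810 genes, and the median number of genes ran from 4563 in MGE-derived 1 to 7585 in Glutamatergic 2.

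Lrrtm1 was the member found in most cells, with at least 1 count in 101 of 148 passed cells (68.2%, exact Clopper-Pearson 95% interval 60.1 to 75.6%). Lrrtm4 was found in 39 (26.4%), Lrrtm2 in 38 (25.7%) and Lrrtm3 in 35 (23.6%). Intervals of a share treat the cells as independent draws, and intervals of a summed level cover the counting of reads only. Reads were not tagged by molecule and cannot be counted as separate molecules. Neither kind of interval covers differences between animals or cultures. Per kilobase of exon, the level from counts summed over passed cells was 69.9 CPM (counts scaled to a total of 1000000) for Lrrtm1, 7.84 for Lrrtm3, 3.26 for Lrrtm2 and 1.80 for Lrrtm4. In Glutamatergic 1 cells the same quantity was 140 for Lrrtm1, 18.6 for Lrrtm3, 3.50 for Lrrtm4 and 2.44 for Lrrtm2. In MGE-derived 2 cells the order of the last 3 was another one, at 47.0 for Lrrtm1, 3.17 for Lrrtm2, 2.51 for Lrrtm4 and 1.71 for Lrrtm3.

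After every cell was thinned to 1700000 counts, which left out no passed cell, Lrrtm1 was found in 98 cells, Lrrtm2 in 36, Lrrtm3 in 32 and Lrrtm4 in 31. Depth in reads therefore moved the number for Lrrtm4 the most, from 39 to 31. Over the 148 cells, the level of Lrrtm2 on the scale of log2(CPM + 1) had Pearson's r of 0.28 with the number of genes found per cell, while r was 0.07 for Lrrtm1, 0.07 for Lrrtm3 and 0.01 for Lrrtm4. These are descriptions over cells that share a level and a gene count from the same library.

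**Figure D1:**
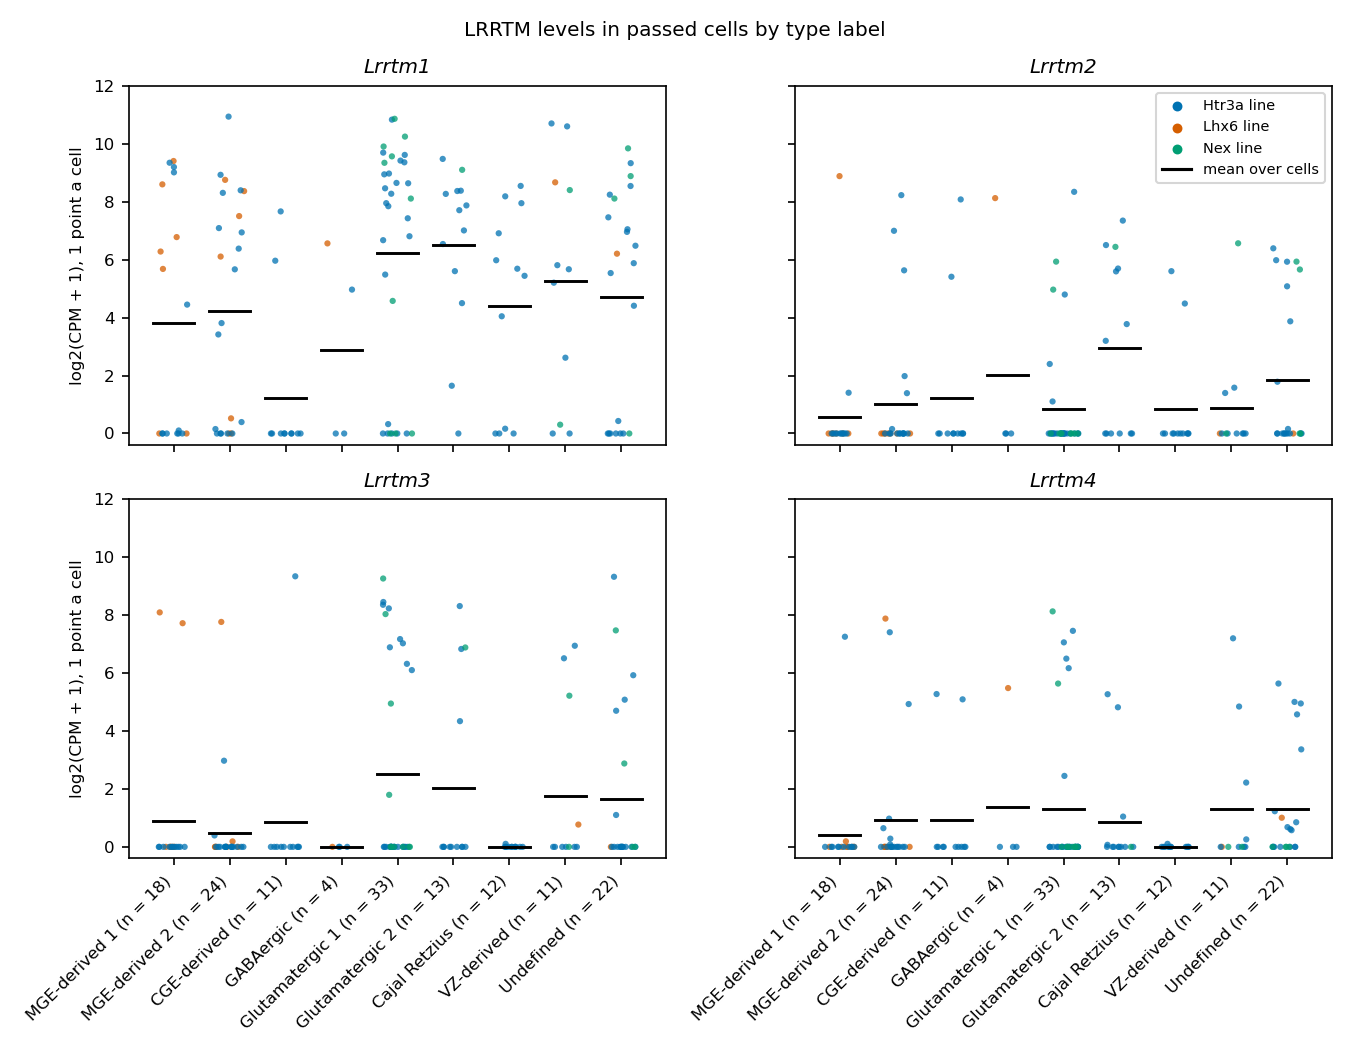
Level of each LRRTM gene in every passed cell, as log2(CPM + 1) on the vertical axis, by the submitters' type label on the horizontal axis. Each point is 1 cell coloured by driver line and each black bar is the mean over cells. Lrrtm1 fills most of the Glutamatergic columns, with means of 6.25 and 6.50, and cells at 0 are seen in every column.

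By the mean of log2(CPM + 1), Lrrtm1 was highest in the Glutamatergic labels, while by summed counts VZ-derived cells (407 CPM) stood above Glutamatergic 2 (233 CPM) and below Glutamatergic 1 (423 CPM). In VZ-derived cells 1 cell gave 53.4% of these counts, and without it the level was 218 CPM. In Glutamatergic 1 cells its level ran from 0 to 1867 CPM with a median of 276, and 25 of 33 cells held a count. In Glutamatergic 2 cells it ran from 0 to 714 CPM with a median of 209, and 12 of 13 held a count. Both groups thus mixed high cells with cells at 0, of which Glutamatergic 2 had 1 and Glutamatergic 1 had 8.

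MGE-derived 1 cells held 0 to 679 CPM of Lrrtm1 (median 10.5, 10 of 18 with a count). MGE-derived 2 cells held 0 to 1967 CPM (median 31.5, 17 of 24 with a count). The cell at 1967 CPM was the highest of all passed cells and gave 27.4% of its group's Lrrtm1 counts. CGE-derived cells were lowest: 9 of 11 were at 0 and the other two stood at 61.5 and 202 CPM. In the 4 cells labelled GABAergic, 2 were at 0 and the other two stood at 30.3 and 93.7 CPM.

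Cajal Retzius cells held 0 to 374 CPM of Lrrtm1 (median 46.6, 9 of 12 with a count). VZ-derived cells held 0 to 1671 CPM (median 49.98, 9 of 11 with a count). In VZ-derived cells, 2 cells of the Htr3a line at 1671 and 1557 CPM carried most of the counts. Summed over cells the level was 407 CPM (exact Poisson 95% interval 403 to 411), and 218 without the highest cell. Both cells had summed progenitor markers at 0 CPM and summed glutamatergic markers at 1716 and 1220 CPM. This does not set them apart, since the medians over all VZ-derived cells were 0 and 1394 CPM. In these 2 cells Cajal-Retzius markers summed to 596 and 869 CPM (median of the label 458). Their GABAergic markers summed to 191 and 0.229 CPM (median of the label 0).

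Ordered by the mean of log2(CPM + 1) with its SD over cells, Lrrtm1 ran from Glutamatergic 2 (6.50 ± 2.89, n = 13 cells) and Glutamatergic 1 (6.25 ± 4.08, n = 33) through VZ-derived (5.27 ± 4.09, n = 11), Cajal Retzius (4.41 ± 3.46, n = 12), MGE-derived 2 (4.24 ± 3.88, n = 24), MGE-derived 1 (3.83 ± 4.13, n = 18) and GABAergic (2.88 ± 3.39, n = 4) to CGE-derived (1.24 ± 2.78, n = 11). Each label differed from the next in this order by less than the larger SD of the pair. Undefined cells stood at 4.70 ± 3.80 (n = 22).

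**Figure D2:**
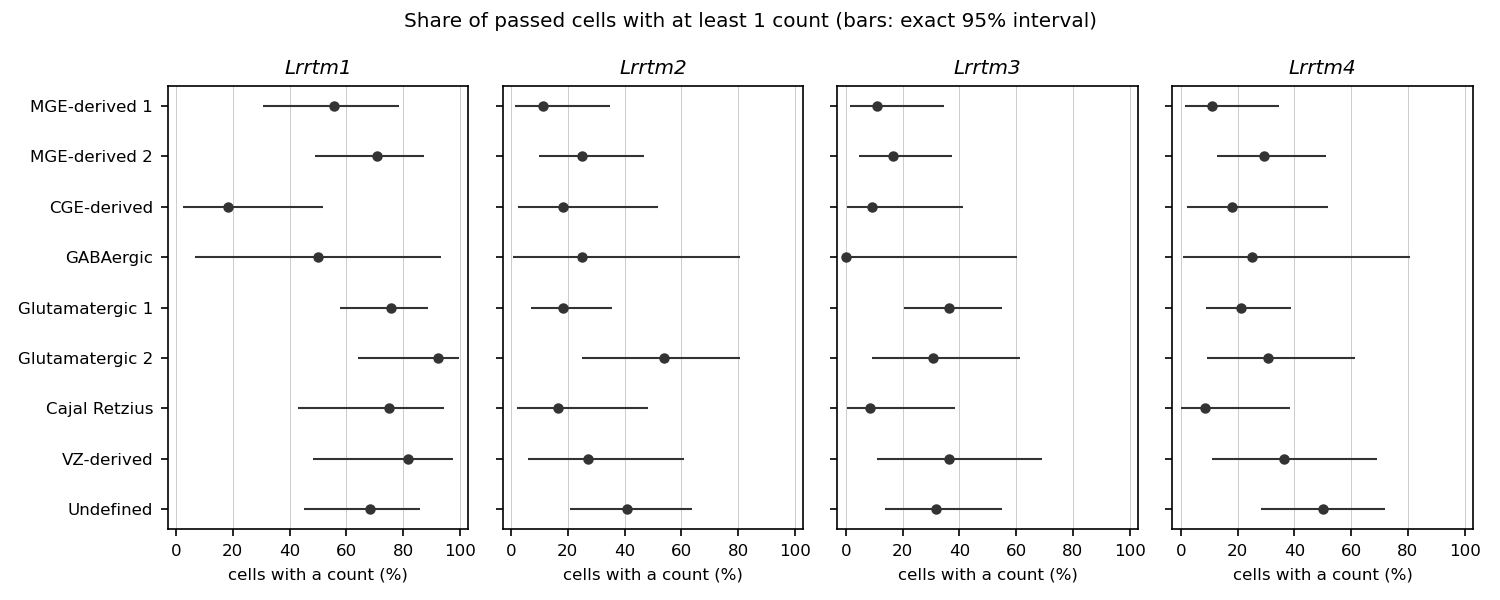
Share of passed cells with at least 1 count of each LRRTM gene (horizontal axis, percent) by type label (vertical axis). Points are the measured shares and bars the exact 95% binomial intervals. Lrrtm1 ranged from 18.2% of CGE-derived to 92.3% of Glutamatergic 2 cells, and the intervals of the other members overlap between labels.

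Lrrtm2, like Lrrtm1 a ligand of neurexins without the splice site 4 insert, was found most often in Glutamatergic 2 cells. There 7 of 13 cells held a count (53.8%, exact 95% interval 25.1 to 80.8%), at 8.19 to 162 CPM, and the group's median was 8.19 CPM. In Glutamatergic 1 cells, 6 of 33 held a count (18.2%, interval 6.98 to 35.5%), and the highest cell at 324 CPM gave 80.0% of the group's counts. Every other label had a median of 0 CPM.

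Among GABAergic classes, Lrrtm2 was found in 2 of 18 MGE-derived 1 cells, at 1.65 and 473 CPM, and in 2 of 11 CGE-derived cells, at 41.6 and 270 CPM. It was found in 6 of 24 MGE-derived 2 cells, at 0.113 to 299 CPM. These 6 cells were all of the Htr3a line, and 0 of 7 MGE-derived 2 cells of the Lhx6 line held a count, which allows a share of up to 42.9%. Of the 4 GABAergic cells, the 1 cell of the Lhx6 line stood at 279 CPM. Cajal Retzius cells held a count in 2 of 12, at 21.4 and 47.7 CPM, and VZ-derived cells in 3 of 11, of which 1 stood at 93.9 CPM and the other two below 2 CPM. Single cells therefore set most of these group levels: without the highest cell the summed level in MGE-derived 1 went from 19.1 to 0.112 CPM.

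On the log2 scale Lrrtm2 was at 2.97 ± 3.05 in Glutamatergic 2 cells (n = 13) and at 0.84 ± 2.07 in Glutamatergic 1 cells (n = 33). The 1 GABAergic cell put that label second at 2.03 ± 4.06 (n = 4). CGE-derived (1.23), MGE-derived 2 (1.02), VZ-derived (0.87), Cajal Retzius (0.84), Glutamatergic 1 and MGE-derived 1 (0.57) followed. Neighbours in this order were all closer than the larger of their SDs.

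Lrrtm3, which binds heparan sulfate, was found in the largest share of cells in Glutamatergic 1 and VZ-derived. In Glutamatergic 1 cells, 12 of 33 held a count (36.4%, exact 95% interval 20.4 to 54.9%), at 2.47 to 615 CPM, and all 12 held at least 10 counts. In Glutamatergic 2 cells, 4 of 13 held a count, at 19.3 to 318 CPM. In VZ-derived cells, 4 of 11 held a count, at 0.706 to 122 CPM. The median was 0 CPM in every label, so the gene was at 0 in most cells and clearly present in a minority.

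Undefined cells held Lrrtm3 in 7 of 22, with the highest at 641 CPM. In the other labels it was rare. MGE-derived 1 cells held it in 2 of 18, at 210 and 273 CPM, both of the Lhx6 line, and 0 of 11 MGE-derived 1 cells of the Htr3a line held a count (up to 27.3%). MGE-derived 2 cells held it in 4 of 24, of which 1 cell of the Lhx6 line at 217 CPM gave 95.9% of the counts. CGE-derived cells held it in 1 of 11, at 649 CPM, the highest level of Lrrtm3 in any passed cell. Cajal Retzius cells held 1 count in all, in 1 of 12 cells. The 4 GABAergic cells held 0, which allows a share of up to 75% of cells. The floor of 3 counts over the reads of these 4 cells is 0.0521 CPM. It covers the counting of their reads only and does not bound the level of the label. Means of log2(CPM + 1) ran from 2.50 ± 3.56 (n = 33) in Glutamatergic 1 over Glutamatergic 2 (2.03), VZ-derived (1.77), MGE-derived 1 (0.88), CGE-derived (0.85) and MGE-derived 2 (0.47) to 0.01 in Cajal Retzius and 0 in GABAergic cells. Neighbours were closer than the larger of their SDs.

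Lrrtm4, the member that binds glypican, showed the least order among labels. Counts were found in 7 of 33 Glutamatergic 1 cells at 4.47 to 279 CPM, and in 4 of 13 Glutamatergic 2 cells at 0.0504 to 37.6 CPM. MGE-derived 2 cells held it in 7 of 24 at 0.0591 to 235 CPM, MGE-derived 1 cells in 2 of 18 and CGE-derived cells in 2 of 11 at 33.2 and 37.8 CPM. VZ-derived cells held it in 4 of 11, with the highest at 146 CPM. Cajal Retzius cells held 1 count in all. Its share was largest in Undefined cells, at 11 of 22 (exact 95% interval 28.2 to 71.8%), at 0.490 to 48.9 CPM with a median of 1.35 over the cells with a count.

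Means of log2(CPM + 1) for Lrrtm4 stayed between 0.41 in MGE-derived 1 and 1.37 in GABAergic cells, apart from 0.01 in Cajal Retzius. VZ-derived (1.32), Glutamatergic 1 (1.32), CGE-derived (0.94), MGE-derived 2 (0.93) and Glutamatergic 2 (0.86) lay between. The SDs over cells ran from 1.71 to 2.74 in these labels, larger than each gap between neighbours.

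The first comparison asked how LRRTM levels differ between the 57 cells of the GABAergic classes (MGE-derived 1 and 2, CGE-derived and GABAergic) and the 46 glutamatergic cells (Glutamatergic 1 and 2). Lrrtm1 ran from 0 to 1967 CPM in the GABAergic classes (median 0.315, 31 of 57 with a count) and from 0 to 1867 CPM in glutamatergic cells (median 240, 37 of 46 with a count). The ranges overlap almost wholly, and the medians lie on either side of 1 CPM. By summed counts it was 3.25-fold higher in glutamatergic cells (356 against 110 CPM), and 337 against 94.6 CPM without the highest cell of each group. The mean of log2(CPM + 1) was lower in the GABAergic classes by 2.88 (a difference of -2.88, SD 3.83 and 3.75 over cells), and by 3.37 within the Htr3a line (-3.37). The GABAergic classes held a median of 4894 genes per cell and glutamatergic cells 5620.5, and among cells with at least 5000 genes the difference was -3.34.

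Lrrtm3 stood at 0 CPM in most cells of either class, with a count in 7 of 57 cells of the GABAergic classes (12.3%, exact 95% interval 5.08 to 23.7%) and in 16 of 46 glutamatergic cells (34.8%, interval 21.4 to 50.2%). The highest cells stood at 649 and 615 CPM, so the ranges overlap. Summed counts gave 21 against 63.5 CPM, 3.02-fold higher in glutamatergic cells, and the 1 CGE-derived cell held 58.8% of the counts of the GABAergic classes. The difference of means was -1.73 (SD 2.15 and 3.45), and -1.93 within the Htr3a line. With a pseudocount of 10 in place of 1 it was -0.93.

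Lrrtm2 differed by -0.45 and Lrrtm4 by -0.39 in that comparison, with counts in 11 and 12 of 57 cells of the GABAergic classes and in 13 and 11 of 46 glutamatergic cells. Thus 2 of 4 members were lower in the GABAergic classes by at least 1 on the log2 scale and 0 of 4 were higher. Among 13139 genes found in 10% or more of the cells in 1 of the groups, 9.74% were lower and 6.07% higher by as much, 15.8% in all. The median difference of the 4 members was -1.09, beside -0.02 over all these genes.

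Genes of the same pathway were counted over the same cells. Over all genes 6.07% were higher in the GABAergic classes by at least 1 and 9.74% lower. Of the neurexins, Nrxn3 (5.07) and Nrxn2 (1.10) were higher in the GABAergic classes. Of the 3 splice site 4 regulators, Khdrbs1 was higher (2.03), Khdrbs2 lower (-1.72) and Khdrbs3 differed by 0.32. Among 18 counted of 22 other neurexin ligands and partners, 3 were higher and 4 lower. The largest differences were those of Nxph1, a secreted neurexin ligand (5.59), of Igsf21, a partner of NRXN2 at inhibitory synapses (-3.36), of Nlgn1, the neuroligin of excitatory synapses (-3.36), and of Clstn2, a calsyntenin (-1.81).

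Glypicans and receptor phosphatases, the partners of LRRTM4 on axons and their relatives, did not all differ. Of 9 counted glypicans and syndecans, 1 was higher (Sdc2, 1.00) and 3 were lower: Gpc5 (-1.50), Gpc4 (-1.36) and Gpc6 (-1.08). Over all genes 6.07% were higher and 9.74% lower by at least 1. Gpc4 was at 2.98 CPM by summed counts in the GABAergic classes and at 66.0 in glutamatergic cells, with a count in 4 of 57 and 13 of 46 cells. Of the 3 receptor phosphatases, Ptprs, found in every cell of both classes, differed by -0.05, while Ptprd (-2.74) and Ptprf (-1.11) were lower.

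Of 24 counted genes of other leucine-rich repeat proteins of the synapse, 8 were lower in the GABAergic classes and 2 higher. Over all genes 9.74% were lower and 6.07% higher by at least 1, shares that also stand beside the lists that follow. The largest differences were those of Ntrk3 (-3.43), a neurotrophin receptor that is also a synapse organiser, Lingo1 (-2.89), Flrt2 (2.24) and Lrrn2 (-1.87). Of 9 AMPA receptor genes and partners, 4 were higher and 2 lower, led by Gria4 (2.89), Gria2 (-2.80), the auxiliary subunit gene Cacng3 (2.29) and Cnih3 (-1.90). Of 14 postsynaptic scaffold genes, 1 was higher and 2 lower, with Homer1 at -2.25 and Dlg1 at -2.02.

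**Figure D3:**
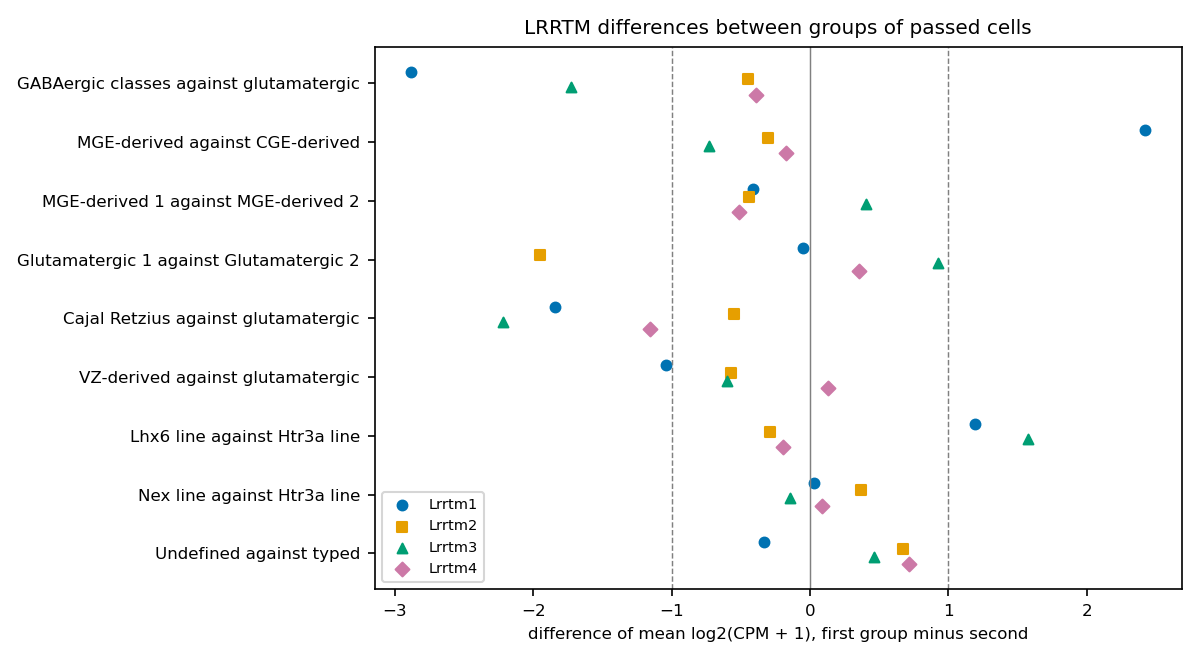
Difference of the mean log2(CPM + 1) between the first and the second group (horizontal axis) for each LRRTM gene in 9 comparisons of passed cells (vertical axis). Dashed lines mark a difference of 1. Lrrtm1 reaches -2.88 in the GABAergic classes and 2.42 in MGE-derived against CGE-derived cells, and Lrrtm4 stays within 1 in 8 of the 9 comparisons.

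Within the Htr3a line, Lrrtm1 was compared between 28 MGE-derived and 11 CGE-derived cells. It ran from 0 to 1967 CPM in MGE-derived cells (17 of 28 with a count) and from 0 to 202 CPM in CGE-derived cells (2 of 11). The CGE-derived cells lie within the range of the MGE-derived cells. Summed counts gave 146 against 21.8 CPM, 6.69-fold higher in MGE-derived cells. In CGE-derived cells 1 cell gave 76.4% of the counts, and without the highest cell of each group the levels were 117 and 5.62 CPM. The difference of means was 2.42 (SD 4.01 and 2.78), and 2.80 without those cells. Among cells with at least 5000 genes it was 1.04.

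The other members did not pass a difference of 1 between those groups, with -0.31 for Lrrtm2, -0.73 for Lrrtm3 and -0.17 for Lrrtm4. Lrrtm3 reached the 10% of cells needed to be counted in neither group, with 2 of 28 and 1 of 11 cells. Its CGE-derived cell at 649 CPM made its summed level 57.7 against 0.236 CPM, and without the highest cell of each group its difference was 0.01. Of 14223 genes, 19.3% were higher in MGE-derived cells by at least 1 and 8.58% lower, 27.9% in all, beside 1 and 0 of the 3 counted members. AMPA receptor genes were higher in 5 of 9 and lower in 1, with Gria1 at 5.18 and Gria3 at 2.29.

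Microglia markers moved with that comparison: beside 19.3% of all genes, 7 of 8 of these markers were higher in MGE-derived cells. Their summed level ran from 0 to 12310 CPM (median 0.196) there and from 0 to 109 CPM (median 0) in CGE-derived cells, where Aif1 and P2ry12 were at 0. Their part in the result was not tested.

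Between MGE-derived 1 and MGE-derived 2, no member differed by 1: Lrrtm1 by -0.41, Lrrtm2 by -0.44, Lrrtm3 by 0.41 and Lrrtm4 by -0.51. Over 13837 genes 25.2% differed by at least 1 (2.61% higher and 22.6% lower in MGE-derived 1), and the median of all genes was -0.39. Within the Htr3a line alone Lrrtm1 differed by -1.22 and Lrrtm2 by -1.31. MGE-derived 1 cells held a median of 4563 genes and MGE-derived 2 cells 5493.5. Microglia markers were lower in MGE-derived 1 in 5 of 8 genes, with a summed level of 0 to 12052 CPM (median 0.0458) against 0 to 12310 CPM (median 0.379), and none at 0 in all cells of a label. Their part in these differences was not tested.

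Between the Glutamatergic labels, compared within the Htr3a line, Lrrtm2 was lower in Glutamatergic 1 by more than 1, beside 48.4% of 12598 genes. Lrrtm2 was found in 4 of 23 Glutamatergic 1 cells (0 to 324 CPM) and in 6 of 12 Glutamatergic 2 cells (0 to 162 CPM), and the ranges overlap. Its difference was -1.95 (SD 2.00 and 2.99). It was -0.85 on the log2 scale by summed counts and -0.89 with a pseudocount of 10. Lrrtm1 differed by -0.05, Lrrtm3 by 0.92 and Lrrtm4 by 0.35.

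Thus 1 of 4 members was lower in Glutamatergic 1 by at least 1 and 0 of 4 higher, beside 1.89% of genes higher (50.3% either way), and nothing about Lrrtm2 is read from its call. The median of all genes was -0.95 and that of the members 0.15. Glutamatergic 1 cells of the Htr3a line held a median of 5183 genes and Glutamatergic 2 cells 7642, and the part of this gap in the difference of Lrrtm2 was not tested. With cells of at least 5000 genes alone the difference was -2.59. Of 23 counted leucine-rich repeat genes 14 were lower in Glutamatergic 1, beside 48.4% of all genes, Lrrn3 (-5.19) and Flrt3 (-4.05) the most. Among neurexin partners Clstn2 (-5.12), Clstn3 (-4.82) and Nlgn1 (-3.33) were lower by the most.

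Cajal Retzius cells, transient neurons of the marginal zone, were set against glutamatergic cells of the Htr3a line (12 against 35 cells). Lrrtm1 ran from 0 to 374 CPM in Cajal Retzius cells (median 46.6) and from 0 to 1830 CPM in glutamatergic cells (median 230), and the difference of means was -1.84 (SD 3.46 and 3.56). Lrrtm3, with 1 count in Cajal Retzius cells, was at 0.00641 CPM (exact Poisson 95% interval 0.000162 to 0.0357) against 53.6 CPM in glutamatergic cells, where 11 of 35 cells held it, and differed by -2.22. Lrrtm4, also with 1 count, stood against 14 CPM in 9 of 35 cells and differed by -1.16, or -0.98 without the highest cell of each group. Lrrtm2 differed by -0.55.

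Thus 3 of 4 members were lower in Cajal Retzius cells by at least 1 and 0 higher, beside 9.13% and 30.5% of 12873 genes (39.7% in all). The members' median was -1.50 and that of all genes 0.42, and Cajal Retzius cells held a median of 6713.5 genes against 5853. Neurexin partners were on the other side in 8 of 16 counted genes, with Car10 (8.36) and the calsyntenins Clstn2 (5.67) and Clstn1 (4.28) higher. Nlgn1 was at 0 in all 12 Cajal Retzius cells and differed by -4.24. Of glypicans, Gpc1 was higher (5.52), at 854 against 105 CPM, and Gpc6 was at 0 in Cajal Retzius cells.

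VZ-derived cells were set against the 46 glutamatergic cells, which served in the first comparison as well. Lrrtm2 differed by -0.57 (7.45 against 22.1 CPM by summed counts), Lrrtm3 by -0.60 (20.7 against 63.5 CPM) and Lrrtm4 by 0.13. Lrrtm1 differed by -1.04 by means, but by 0.19 by summed counts, the other direction. Of 12256 genes 14.7% were lower by at least 1, beside 1 of 4 members, and 11.6% higher, beside 0 of 4 (26.3% in all). The difference of Lrrtm1 was -1.49 without the highest cell of each group.

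Driver lines were compared over both MGE-derived labels together. Of 14 cells of the Lhx6 line 7 were MGE-derived 1, and of 28 cells of the Htr3a line 11 were, so the lines hold the labels in different proportions. Lrrtm3 was found in 4 and 2 cells of these lines. In the Lhx6 line those 4 cells reached 273 CPM at most, and in the Htr3a line the higher of the other two stood at 6.86 CPM. The difference was 1.58 (SD 3.34 and 0.56) with 50.5 against 0.236 CPM by summed counts. Lrrtm1 differed by 1.20, but by 0.98 with edgeR's TMM factors and by -0.0033 among cells with at least 5000 genes. Lrrtm2 (-0.29) and Lrrtm4 (-0.19) stayed under 1. Thus 2 of 4 members were higher in the Lhx6 line, beside 9.01% of 14147 genes, and 0 of 4 lower, beside 20% (29% in all).

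Microglia markers were lower in the Lhx6 line in 8 of 8 genes, with a summed level of 0 to 8.59 CPM (median 0.152) against 0 to 12310 CPM (median 0.196), and Aif1, Cx3cr1 and P2ry12 at 0. The Lhx6 line also held fewer genes per cell, a median of 4581.5 against 5493.5. Their part in the results was not tested. Of the splice site 4 regulators, Khdrbs3 was higher in the Lhx6 line by 3.13, Khdrbs2 differed by -1.30 and Khdrbs1 by 0.33. Nrxn2 (-2.67), Nrxn3 (-2.14) and the host gene Ctnna2 (-1.72) were lower.

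Among Glutamatergic 1 cells, 10 of the Nex line and 23 of the Htr3a line, no member differed by 1: Lrrtm1 by 0.03, Lrrtm2 by 0.37, Lrrtm3 by -0.14 and Lrrtm4 by 0.09. Among cells with at least 5000 genes, few in the Nex line, the difference of Lrrtm2 passed 1, as given in the last section. Lrrtm1 was at 546 CPM in the Nex line and 379 in the Htr3a line by summed counts. Its counts were found in 7 of 10 and 18 of 23 cells. Of 12508 genes 14.3% were higher and 19.1% lower in the Nex line by at least 1 (33.3% in all). Undefined and typed cells of the Htr3a line (17 and 97 cells) differed by -0.33 for Lrrtm1, 0.68 for Lrrtm2, 0.46 for Lrrtm3 and 0.72 for Lrrtm4, none past 1, beside 8.52% of 14202 genes higher and 3.30% lower (11.8% in all). Microglia markers were higher in Undefined cells in 5 of 8 genes, with a summed level of 0 to 7383 CPM (median 25.7) against 0 to 12310 CPM (median 0.131), and their part was not tested.

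Over these 9 comparisons of passed cells, which share cells with one another, 10 of 36 differences of a member reached 1: 5 for Lrrtm1, 3 for Lrrtm3 and 1 each for Lrrtm2 and Lrrtm4. None of the 36 exceeded the larger SD over cells of its 2 groups. In the 14 failed cells, Lrrtm1 was found in 2 and at most at 2.42 CPM, a difference from passed cells of -4.57, which exceeded the larger SD of 3.93. Lrrtm2, Lrrtm3 and Lrrtm4 were found in 3, 1 and 2 failed cells and differed by -0.64, -0.96 and -0.60. Failed cells held a median of 2032.5 genes against 5363 (1 of them held 122 counts in all), and 61.8% of 12683 genes were lower in them by at least 1 and 0.142% higher (61.9% in all), beside 1 and 0 of 4 members.

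A cell held between 0 and 4 of the LRRTM genes. Of 148 passed cells, 24 held none, 64 held 1, 37 held 2, 17 held 3 and 6 held all 4, so 60 cells (40.5%) held at least 2. After thinning, 53 did, and 50 did when a gene had to have 10 counts. At least 2 members were found in 9 of 13 Glutamatergic 2 cells, 6 of 11 VZ-derived, 11 of 22 Undefined, 16 of 33 Glutamatergic 1 and 10 of 24 MGE-derived 2 cells. They were found in 3 of 18 MGE-derived 1, 2 of 11 CGE-derived and 2 of 12 Cajal Retzius cells and 1 of 4 GABAergic cells. After thinning the number for MGE-derived 2 was 5 of 24. The 6 cells with all 4 were 4 Undefined, 1 Glutamatergic 2 and 1 VZ-derived. All 6 were of the Htr3a line, which gave 114 of the 148 passed cells. With a minimum of 10 counts 4 cells held all 4 members, of which 2 were Undefined. After thinning 5 cells did, of which 3 were Undefined. These 6 cells held 5422 to 10902 genes, beside a median of 5363 over all passed cells, and the part of this was not tested.

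**Figure D4:**
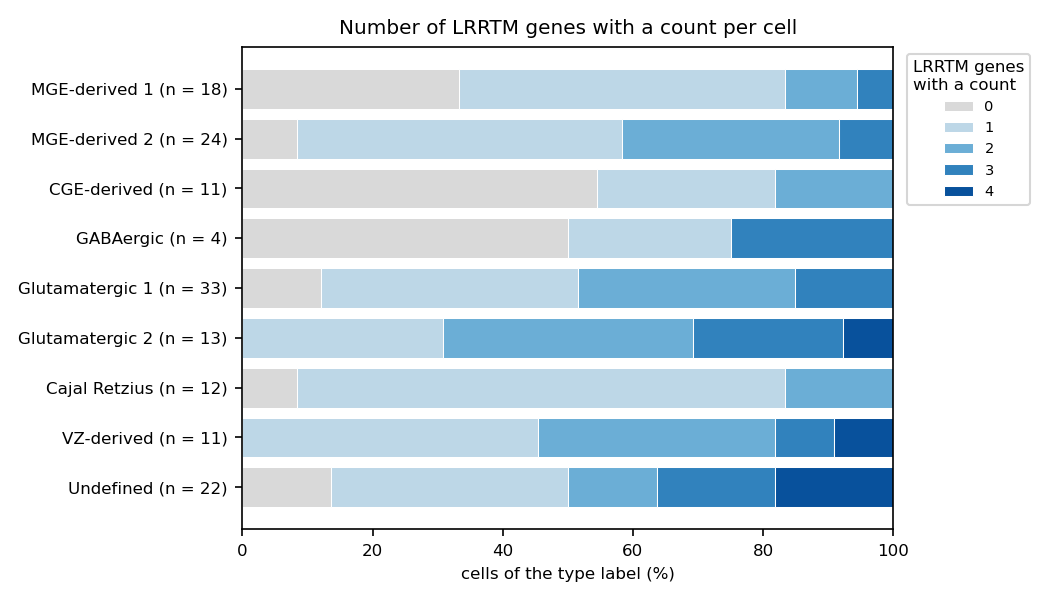
Percent of the cells of each type label (horizontal axis) by the number of LRRTM genes with at least 1 count in the cell (shade, from 0 to 4). Glutamatergic 2 and VZ-derived cells hold no cell without a member, and 6 of 11 CGE-derived cells have none.

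Lrrtm1 was present in most cells that held another member: in 28 of 38 cells with Lrrtm2, 27 of 35 with Lrrtm3 and 27 of 39 with Lrrtm4, beside 101 of 148 cells in all. Lrrtm3 and Lrrtm4 were found together in 16 cells, 45.7% of the cells with Lrrtm3 and 41.0% of those with Lrrtm4. With a minimum of 10 counts it was 10 cells (33.3% and 35.7%), and after thinning 12. Pearson's r between members over 148 cells lay between 0.02 (Lrrtm1 and Lrrtm2) and 0.16 (Lrrtm3 and Lrrtm4), which in sparse counts is no finding.

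The host genes were compared with the LRRTM genes within them. Lrrtm1 was found in 101 and Ctnna2 in 96 of 148 passed cells. They were found together in 72 cells, 71.3% of those with Lrrtm1 and 75% of those with Ctnna2 (r = 0.13 over 148 cells). Lrrtm1 alone was found in 29 cells and Ctnna2 alone in 24. Lrrtm2 was found in 38 and Ctnna1 in 37 of the 148 cells. They were found together in 18 cells, 47.4% of those with Lrrtm2 and 48.6% of those with Ctnna1 (r = 0.21). Ctnna3 was found in 3 cells, of which 1 held Lrrtm3, while Lrrtm3 was found in 34 cells without it. Between the GABAergic classes and glutamatergic cells Ctnna2 differed by -0.47 and Ctnna1 by 0.24, beside -2.88 for Lrrtm1 and -0.45 for Lrrtm2.

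Among 9369 genes with a count in at least 25% of passed cells, the pattern most like that of Lrrtm1 was that of Syp, which encodes the synaptic vesicle protein synaptophysin, with r of 0.54 over 148 cells and 0.83 over the means of the 9 labels. Syp was found in 99 of the 101 cells with Lrrtm1, beside 122 of 148 passed cells in all. Cdh13 (r = 0.43), a cadherin gene, Plppr1 (0.42), Pfkp (0.40), a glycolytic enzyme gene, and Plppr4 (0.40) followed, with r over the label means of 0.73, 0.77, 0.92 and 0.84.

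For Lrrtm2 the nearest were Scn1a, a sodium channel gene (0.45), Slc35a3 (0.44), Atp2b2, a calcium pump gene (0.41), Spindoc (0.41) and Drc1 (0.40), with r over the label means of 0.41, 0.68, 0.69, 0.64 and 0.57. For Lrrtm3 they were Kcnmb4, a potassium channel subunit gene (0.43), Prss12 (0.38), Cacna1e, a calcium channel gene (0.37), Arpp21 (0.36) and Rps6ka3 (0.36), with r over the label means of 0.94, 0.92, 0.77, 0.88 and 0.70. Lrrtm4 had the weakest likeness: Hs3st4, a heparan sulfate sulfotransferase gene (0.35), Fmn2 (0.32), Tle4 (0.29), Acsl4 (0.28) and Kitl (0.27). Over the label means these had r of 0.48, 0.06, -0.25, -0.02 and 0.55, so for 3 of them the labels did not order as Lrrtm4 did. Points in each case share cells and depth, and no p-value was computed. For each member these are the highest r among 9369 genes. How high r runs by picking from so many was not tested, and nothing about function is read from the names.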

How the data were processed

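RNA from the cytosol of single mouse embryonic cells was sequenced, per the labels. Reads were handled by STAR, featureCounts and Trimmomatic on build GRCm38, per the submitters' processing notes; versions and the strand setting are not given in the sources used here. A table of whole counts by Ensembl identifier was deposited by the authors. They also deposited a normalized signal for 148 passed cells and 22800 genes, which serves here as an alternative; 99.8% of its values lay within 0.1% of the counts over 1 factor per cell. Of 22880 identifiers, 22647 were given a symbol from GENCODE M21, which left 22870 genes. Another count table, keyed by symbol, is held in part and was not used here.

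CPM is a gene's count over the cell's total, scaled to 1000000. Differences are first minus second group mean of log2(CPM + 1). A gene was counted if found in 10% or more of 1 group's cells, and called past a difference of 1. No test or p-value was computed between groups, since each group counts as 1 sample. Dixon's critical value was used only to mark single cells within a group. Intervals are exact Poisson and Clopper-Pearson at 95%, and floors are 3 counts or 3 cells. Passed cells held 1710224 counts or more, so 1 count is under 1 CPM in each. Genes named are the members, neurexins, alpha-catenins and splice site 4 regulators. Some of these genes and markers are not reported here. From every other list up to 4 counted genes with the largest differences may be named, and per member the 5 of highest r. The members, lists and comparisons were chosen with earlier results of these data known. Scripts were tested on simulated data. Python 3.11.15, pandas 2.3.3, R 4.3.3 and edgeR 4.0.16 (TMM factors only, an alternative) were used.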

Additional observations from a re-analysis of the deposited data

Results flagged for a closer look

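Dixon's 95% critical value was applied to log2(CPM + 1) in groups of 4 to 10 cells of 1 label, or of 1 label and line, and marked 6 of 21 sets in which a member varied. In 5 of the 6 all other cells were at 0, where any count at all is marked. The usual chance rate of about 1 set in 20 does not apply to such sets, and their number is not read against it. In each of the 6 the highest cell stood apart, and the member had a count in 1 or 2 cells of the group.

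Among 7 MGE-derived 1 cells of the Lhx6 line, cell 5 stood at 473 CPM of Lrrtm2 and cell 6 at 0.142 CPM of Lrrtm4, with all others at 0. Among 7 MGE-derived 2 cells of the Lhx6 line, cell 6 stood at 217 CPM of Lrrtm3 and cell 3 at 235 CPM of Lrrtm4. Of the 4 cells labelled GABAergic, cell 1, the only one of the Lhx6 line, stood at 279 CPM of Lrrtm2 and 43.8 CPM of Lrrtm4, with the other 3 at 0 for both.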

How the results depend on the processing

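No paired analysis was possible because cells carry no replicate number that groups share, and the count table by symbol was not run as an alternative because it was held in part and has no LRRTM row. Of the 11 differences of at least 1, 100 of 102 values under alternatives kept their direction and 14 fell under 1. By summed counts Lrrtm1 in VZ-derived against glutamatergic cells turned to 0.19, and among cells with at least 5000 genes Lrrtm1 in the Lhx6 against the Htr3a line turned to -0.0033. The cause was not tested. Among those cells Lrrtm2 in the Nex against the Htr3a line was 3.55. Of the Nex line these were Glutamatergic 1 cells 24, 26 and 32 alone, at 60.2, 0 and 30.3 CPM of Lrrtm2. Of the Lhx6 line they were cells 6 and 7 of each MGE-derived label alone. By summed counts Lrrtm3 was at -5.57 in MGE-derived against CGE-derived cells, at -5.76 in Cajal Retzius against glutamatergic cells and at 5.38 in the Lhx6 against the Htr3a line, and Lrrtm4 at -3.90 in Cajal Retzius against glutamatergic cells.

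Of 380 levels by label under alternatives, 352 moved by less than 1 SD over cells. Log2 of the summed CPM plus 1 lies above a mean of logs by construction. It was 4.51 for Lrrtm1 in CGE-derived cells. For Lrrtm2 it was 4.33 in MGE-derived 1 and 2, 4.53 in CGE-derived, 6.24 in GABAergic, 3.97 in Glutamatergic 1, 2.99 in Cajal Retzius and 3.08 in VZ-derived cells. For Lrrtm3 it was 4.45 in MGE-derived 1, 3.05 in MGE-derived 2, 5.87 in CGE-derived, 6.33 in Glutamatergic 1 and 5.03 in Undefined cells. For Lrrtm4 it was 3.60 in MGE-derived 1, 4.04 in MGE-derived 2, 3.15 in CGE-derived, 4.49 in Glutamatergic 1 and 3.84 in VZ-derived cells. With the Lhx6 line alone, GABAergic was 6.56 for Lrrtm1, 8.13 for Lrrtm2 and 5.48 for Lrrtm4. With the Nex line alone, Glutamatergic 2 was 6.44 for Lrrtm2 and 6.89 for Lrrtm3, and VZ-derived 3.28 for Lrrtm2. A pseudocount of 0.1 gave Lrrtm1 in Glutamatergic 2 cells 9.52 and Lrrtm3 and Lrrtm4 in Cajal Retzius cells 0.067 each. With failed cells included Lrrtm3 in GABAergic cells was 0.94.

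Counts of genes past a difference of 1 depended on the pseudocount. With 0.1 and 10 in place of 1 they went from 2077 to 3960 and 598 for GABAergic classes against glutamatergic cells, from 3970 to 6427 and 1256 for MGE-derived against CGE-derived, from 3493 to 6064 and 931 for MGE-derived 1 against 2, from 3223 to 5306 and 945 for VZ-derived, from 4103 to 6731 and 1372 for the Lhx6 line, from 4168 to 6262 and 1733 for the Nex line and from 1678 to 3751 and 231 for Undefined cells. With 10 alone they went from 6332 to 2615 for Glutamatergic 1 against 2, from 5107 to 2134 for Cajal Retzius and from 7857 to 4107 for failed cells. The authors' signal moved the median of all genes in Glutamatergic 1 against 2 by 0.12.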
